A study of Homo sapiens with 24 samples.

Results

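The integrated stress response genes and the cytosolic tRNA synthetase genes were followed by RNA sequencing in RCC4+VHL cells, a renal cell carcinoma line in which VHL, the protein that marks HIF-α for destruction in oxygen, has been put back by stable transfection. The 42 members were taken by gene symbol from the count files, which list 23106 symbols, and all 42 were found. Of these, 22 belong to the stress response branch and 20 encode cytosolic synthetases or their subunits, and 41 are described here. The cells, all of which carry the restored VHL, were kept in normoxia (21% oxygen) or hypoxia (0.5% oxygen) for 6 h, with 0.1% DMSO as vehicle or with 100 nM ITE, an indole ligand of the aryl hydrocarbon receptor (AHR). The 4 groups are called normoxia + DMSO, hypoxia + DMSO, normoxia + ITE and hypoxia + ITE. Each held 6 replicate libraries of polyA RNA from this 1 line. The methods call the replicates independent without saying whether each was a separate culture, so p-values measure the spread between these libraries.

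The integrated stress response is the pathway by which a cell slows translation when amino acids run short, the endoplasmic reticulum is strained or heme is lacking. A family of kinases phosphorylates the α subunit of the initiation factor eIF2, general initiation falls, and the messenger of the transcription factor ATF4 is translated more. ATF4, usually paired with a C/EBP protein, turns on genes for amino acid synthesis and transport and many of the enzymes that charge tRNAs with amino acids, and PPP1R15A closes the loop by directing a phosphatase back to eIF2. Severe hypoxia is among the known triggers. The files hold RNA counts, so eIF2 phosphorylation and ATF4 protein were not measured.

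Total counts ranged from 770094 to 93851342 per library, and the 41 members together took between 0.547% and 0.718% of them. The shallowest library was hypoxia + DMSO replicate 2, in which a count of 3 equals 3.90 CPM (read numbers divided by the TMM-normalised size of the library), a limit that covers counting error only. Hypoxia + ITE replicate 6 stood apart: its median absolute deviation from its group's median was 0.65 on the log2 scale over all genes tested and 0.53 over the members, against at most 0.35 and 0.24 in the other 23 libraries. The renal markers PAX8 and PAX2 were present in every group, with medians of 228 to 256 CPM for PAX8, while CA9 was at 0 in all libraries but normoxia + DMSO replicate 4 and CA12, another carbonic anhydrase of such tumours, had a median of at most 0.011 CPM. Replicate 4 of normoxia + DMSO held 6.81 CPM of CA12. It also held 27.1 CPM of COL1A1 and 0.81 CPM of PECAM1, markers of fibroblasts and endothelium. The leukocyte marker PTPRC was at 0 in all libraries but that one. CDH5 (endothelium) was also highest in normoxia + DMSO replicate 4 (0.663 CPM), followed by 0.595 CPM in hypoxia + DMSO replicate 3. Another listed marker each of leukocytes and fibroblasts was present more widely. CD68 (leukocytes) ranged from 5.50 to 31.4 CPM over all libraries, and PDGFRB (fibroblasts) from 27.0 to 48.5 CPM in normoxia + DMSO. The labelled stimuli were visible in their known targets: NDRG1 was higher in hypoxia with DMSO (log2 fold change 3.25) and CYP1B1 higher with ITE in normoxia (2.51).

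In a fit across all 24 libraries and 11735 genes, 39 of the 41 could be tested. PHGDH, the first enzyme of serine synthesis, had a highest level of 0.218 CPM and a count of 0 in every hypoxia library. VARS, the valine synthetase, had a highest level of 1.10 CPM although the other synthetases lay far above it. Of the 62 protein-coding genes within 500 kb of VARS, 53 (85.5%) had a mean under 1 CPM, against 40.7% of 18736 protein-coding genes in all. The part of read mapping or of the annotation in the low values of PHGDH and VARS was not tested, and neither gene is interpreted here.

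Per kilobase of transcript, ATF4 was the most abundant of the 39 members in normoxia + DMSO, with a mean of 341 CPM per kilobase, and CHAC1, which degrades glutathione, the least abundant with 3.13. Among the initiation factor and its kinases, EIF2S1, the eIF2 subunit that is phosphorylated, had 41.1 CPM per kilobase, EIF2AK4 (GCN2, the sensor of uncharged tRNA) 14.6, and EIF2AK3 (PERK, the sensor in the endoplasmic reticulum) 6.98. The phosphatase subunit PPP1R15A, which is induced by stress, had 40.1 and its constitutive relative PPP1R15B had 8.99. The transcription factors after ATF4 followed in the order ATF5 (31.7), CEBPB (28.8), DDIT3 (22.5), CEBPG (17.2) and NUPR1 (4.85), and the libraries of neighbours in this order overlapped except those of CEBPG and NUPR1. This order depends on the transcript lengths used, 903 bases for DDIT3 and 5291 for NUPR1. Before division by length NUPR1 had 13.0 to 45.6 CPM and DDIT3 14.0 to 27.0 in normoxia + DMSO. Synthetase levels ran from 9.06 CPM per kilobase for FARSB, the β subunit of phenylalanine synthetase, to 145 for YARS, the tyrosine synthetase. FARSA, whose product forms 1 enzyme with that of FARSB, had 55.8. The transcript lengths used were 1811 bases for FARSA and 6761 for FARSB. Before division by length FARSA had 86.2 to 131 CPM and FARSB 56.2 to 66.6 in normoxia + DMSO.

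**Figure D1:**
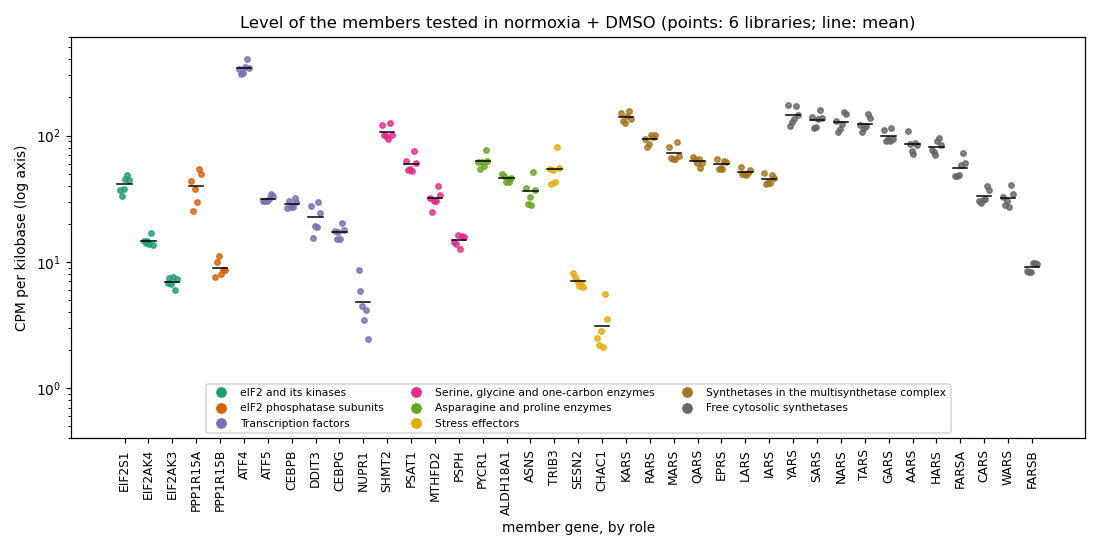
Level of the 39 members tested in normoxia + DMSO, in CPM per kilobase on a log axis. Points are the 6 libraries, lines their means, and colours the roles. ATF4 (mean 341) lies above all other members and CHAC1 (3.13) below them.

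The members varied less between replicates than the median gene. Their median biological coefficient of variation, the replicate spread left after counting error, was 16.1% over 39 members and 20.5% over all genes tested, a comparison that was not matched for expression level. It was lowest for FARSB and LARS, the leucine synthetase (12.4% each), and highest for NUPR1, a small stress-induced chromatin protein (47.0%), and CHAC1 (36.1%). NUPR1 ranged from 12.9 to 74.2 CPM within hypoxia + DMSO alone, so a difference between groups of this gene was hard to detect here.

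The promoters of the members were searched for known elements. ATF4 with a C/EBP partner binds the C/EBP-ATF response element (CARE), searched here on both strands as TGATGNAA, where N is any base. RefSeq promoter windows (GRCh38.p14, from 250 bases before to 50 after a start site) were given for 34 of the 41 members. CARE was present in 11 of these 34 (32.4%), against 4.46% of 27305 genes with a window and 2.67% of the 9359 tested genes with one, and the other 23 members with a window held none. The stricter form TGATGCAA, which lies within the first, was present in 9 of 34 (26.5%), against 1.08% and 0.662%. The synthetases held most of the matches, 7 of 16 with a window, and the stress response branch held 4 of 18. Of the mitochondrial synthetases, which charge tRNAs in the organelle and are no members, 1 of 14 held CARE. The 11 matches are shown because this element is what the module is known for, each with 11 bases on either side in the direction of the gene and the element in capitals, so that TTGCATCA and TTTCATCA are matches on the other strand.
PPP1R15B, chr1:204412026-204412055, minus strand: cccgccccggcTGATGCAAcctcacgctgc
CEBPG, chr19:33374060-33374089, plus strand: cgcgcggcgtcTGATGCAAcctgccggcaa
ASNS, chr7:97872458-97872487, minus strand: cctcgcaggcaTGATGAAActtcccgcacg
CHAC1, chr15:40953251-40953280, plus strand: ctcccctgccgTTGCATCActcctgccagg
IARS, chr9:92293692-92293721, minus strand: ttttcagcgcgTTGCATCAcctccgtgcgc
MARS, chr12:57488053-57488082, plus strand: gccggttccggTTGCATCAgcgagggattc
AARS, chr16:70289675-70289704, minus strand: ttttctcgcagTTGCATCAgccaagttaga
CARS, chr11:3057407-3057436, minus strand: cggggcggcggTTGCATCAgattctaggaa
GARS, chr7:30594834-30594863, plus strand: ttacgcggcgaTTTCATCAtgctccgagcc
NARS, chr18:57621804-57621833, minus strand: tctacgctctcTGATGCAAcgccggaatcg
TARS, chr5:33440956-33440985, plus strand: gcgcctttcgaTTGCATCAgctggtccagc
The ASNS match is the known nutrient-sensing element of that gene's promoter. A match is a run of letters and not a measured binding site.

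The cores bound by the factors that the stimuli activate were searched in the same windows. ACGTG, the core of the hypoxia response element, was present in 8 of 34 members (23.5%), against 24.9% of all genes with a window and 32.9% of those tested. GCGTG, the core of the dioxin response element to which AHR binds, was present in 26 of 34 (76.5%), against 40.6% and 59.5%. Both share the letters CGTG, and matches on opposite strands can overlap. The paper gives the HIF motif as RCGTG (R is A or G), with ACGTG favoured, so a GCGTG match is not particular to AHR. The windows of TRIB3 and CEBPB held no ACGTG. Upstream stretches of 3 members are shown because these genes are described below, where no result rests on the marked letters. GCGTG and its reverse complement CACGC are in capitals for TRIB3 and CEBPB, and ACGTG with its reverse complement for ATF4.
TRIB3, chr20:381135-381294, plus strand: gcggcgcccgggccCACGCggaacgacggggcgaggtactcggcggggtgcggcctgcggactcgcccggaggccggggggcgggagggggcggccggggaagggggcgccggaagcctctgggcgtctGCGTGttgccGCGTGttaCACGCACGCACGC
CEBPB, chr20:50190600-50190829, plus strand: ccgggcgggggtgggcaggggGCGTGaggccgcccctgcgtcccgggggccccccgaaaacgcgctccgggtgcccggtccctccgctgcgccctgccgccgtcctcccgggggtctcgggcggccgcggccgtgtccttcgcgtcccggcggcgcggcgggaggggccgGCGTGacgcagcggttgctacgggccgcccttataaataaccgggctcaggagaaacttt
ATF4, chr22:39520439-39520558, plus strand: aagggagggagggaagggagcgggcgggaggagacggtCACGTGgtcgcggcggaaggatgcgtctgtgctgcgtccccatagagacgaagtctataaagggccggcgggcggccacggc

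The first question was what hypoxia did to this module. With DMSO, 1 of the 39 members passed the threshold (an adjusted p under 0.05), and it was higher in hypoxia, where 1.16% of all genes tested were higher and 0.136% lower. It was TRIB3, a pseudokinase that ATF4 and DDIT3 induce and that in turn restrains ATF4. The remaining 38, ATF4 targets such as ASNS, PSAT1 and CHAC1 among them, did not pass. The median log2 fold change of the members was 0.011, and that of all genes tested was -0.003. With ITE present, TRIB3 was again the member that passed and was higher, where 1.89% of all genes were higher and 0.46% lower. DESeq2 called ATF4 as well in that comparison, and the share of all genes that it called is not given here.

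TRIB3 (chromosome 20, 343479 to 378203 in GRCh37) ranged from 97.3 to 192 CPM with a median of 126 in normoxia + DMSO, and from 211 to 265 with a median of 238 in hypoxia + DMSO. The ITE groups held 77.8 to 151 CPM at 21% oxygen (median 108) and 168 to 314 CPM at 0.5% oxygen (median 193). At both treatments every hypoxia library lay above every normoxia library. In log2 terms TRIB3 rose by 0.89 with DMSO (standard error 0.17, adjusted p = 0.00221 by edgeR), or 1.85-fold, and 0.99 with ITE (standard error 0.17, adjusted p = 0.000594), or 1.98-fold. Without hypoxia + ITE replicate 6, which was the highest library, the latter was 0.84 (adjusted p = 0.00096).

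No synthetase described here passed. Over the 7 synthetases of the multisynthetase complex the log2 fold change in hypoxia with DMSO ran from -0.07 (MARS, the methionine enzyme) to 0.17 (QARS, the glutamine enzyme, adjusted p = 0.826), with a median of 0.05. Over the 11 free cytosolic synthetases tested it ran from -0.17 (FARSA) to 0.06 (TARS, the threonine enzyme), with a median of -0.01. With ITE present, QARS differed by 0.50 (unadjusted p = 0.00679 and adjusted p = 0.106 from edgeR). Its levels were 138 to 171 CPM in normoxia + ITE and 145 to 426 in hypoxia + ITE, which overlapped, and the value of 426 came from replicate 6. Without that library the difference was 0.19 (adjusted p = 0.35). FARSB differed by -0.28 (adjusted p = 0.145), with 53.1 to 73.9 CPM against 44.7 to 57.6, and these ranges overlapped too.

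ATF4 (chromosome 22, 39915700 to 39918688 in GRCh37) is regulated mainly in translation, but its RNA can also change. It ranged from 432 to 572 CPM in normoxia + DMSO, with a median of 479, and from 517 to 696, with a median of 597, in hypoxia + DMSO. With ITE it ranged from 446 to 513 in normoxia (median 469) and from 532 to 909 in hypoxia (median 571). The ranges overlapped with DMSO and did not overlap with ITE, as those of 2.13% of all genes did not. The log2 fold change of ATF4 was 0.30 with DMSO (standard error 0.12, adjusted p = 0.345) and 0.41 with ITE (standard error 0.12, adjusted p = 0.0614), neither of which passed. In the limma fit that weighted libraries by quality the difference with DMSO passed (0.25, adjusted p = 0.0159). Under DESeq2 the difference with ITE passed (adjusted p = 0.0211), and without hypoxia + ITE replicate 6 it was 0.27 (adjusted p = 0.111).

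ATF5, a relative of ATF4 that is also translated under stress, was the reverse with DMSO. It ranged from 60.8 to 69.7 CPM in normoxia + DMSO and from 45.1 to 56.9 in hypoxia + DMSO. The groups did not overlap, as those of 2.74% of all genes did not, yet the log2 fold change of -0.31 (standard error 0.22) did not pass (adjusted p = 0.702 from edgeR). It passed in a fit that weighted libraries by quality (adjusted p = 0.0407 from limma). Exons of ATF5 overlap NUP62 on the opposite strand by 565 of 2892 bases. The strand setting of the counting is not given in the sources used here, so reads of both cannot be told apart in that stretch.

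The other members of the response gave small differences with wide intervals. In hypoxia with DMSO, DDIT3 (CHOP, a factor of the terminal stress response) differed by 0.05 (95% interval -0.37 to 0.47), with 355 of its 1307 exon bases shared with MARS on the opposite strand, and ASNS, the asparagine synthetase, by -0.06 (-0.39 to 0.26). CHAC1 differed by 0.33 (-0.38 to 1.03). Both kinases were near or below their normoxia level: EIF2AK4 had 75.8 to 93.9 CPM in normoxia + DMSO and 51.1 to 78.0 in hypoxia + DMSO, a log2 fold change of -0.25 (adjusted p = 0.559), and EIF2AK3 had a log2 fold change of 0.00 with DMSO and -0.41 with ITE (adjusted p = 0.166). Of the enzymes, ALDH18A1, which begins proline synthesis, had the smallest p of its group (log2 fold change 0.21, adjusted p = 0.559, and 0.26 with adjusted p = 0.0132 under limma with quality weights), with 143 to 167 CPM in normoxia + DMSO and 140 to 207 in hypoxia + DMSO. MTHFD2 and SHMT2, of mitochondrial one-carbon metabolism, differed by 0.16 and 0.10. The intervals of the differences of DDIT3, ASNS, CHAC1, EIF2AK4, MTHFD2 and SHMT2 with DMSO reach both sides of 0.

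The levels of the remaining members with the smallest p of their role were as follows. EIF2AK3 ranged from 27.2 to 34.2 CPM in normoxia + DMSO, 32.0 to 37.8 in normoxia + ITE, 17.9 to 37.9 in hypoxia + DMSO and 13.3 to 33.5 in hypoxia + ITE. EIF2S1 lay between 129 and 245 CPM over all libraries. PPP1R15B had 38.3 to 58.9 CPM in the normoxia libraries, 38.9 to 44.6 in hypoxia + DMSO and 14.7 to 43.9 in hypoxia + ITE. For EIF2S1 and PPP1R15B the hypoxia + ITE group had the widest range, and for EIF2AK3, EIF2S1 and PPP1R15B the groups overlapped in each comparison. SHMT2 lay between 190 and 276 CPM and MTHFD2 between 89.3 and 190 over all libraries. PYCR1, the last enzyme of proline synthesis, ranged from 120.4 to 175 CPM over all libraries. FARSA lay between 72.8 and 131 CPM, and RARS, the arginine synthetase, between 166 and 293. No called difference was found in any of these genes.

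**Figure D2:**
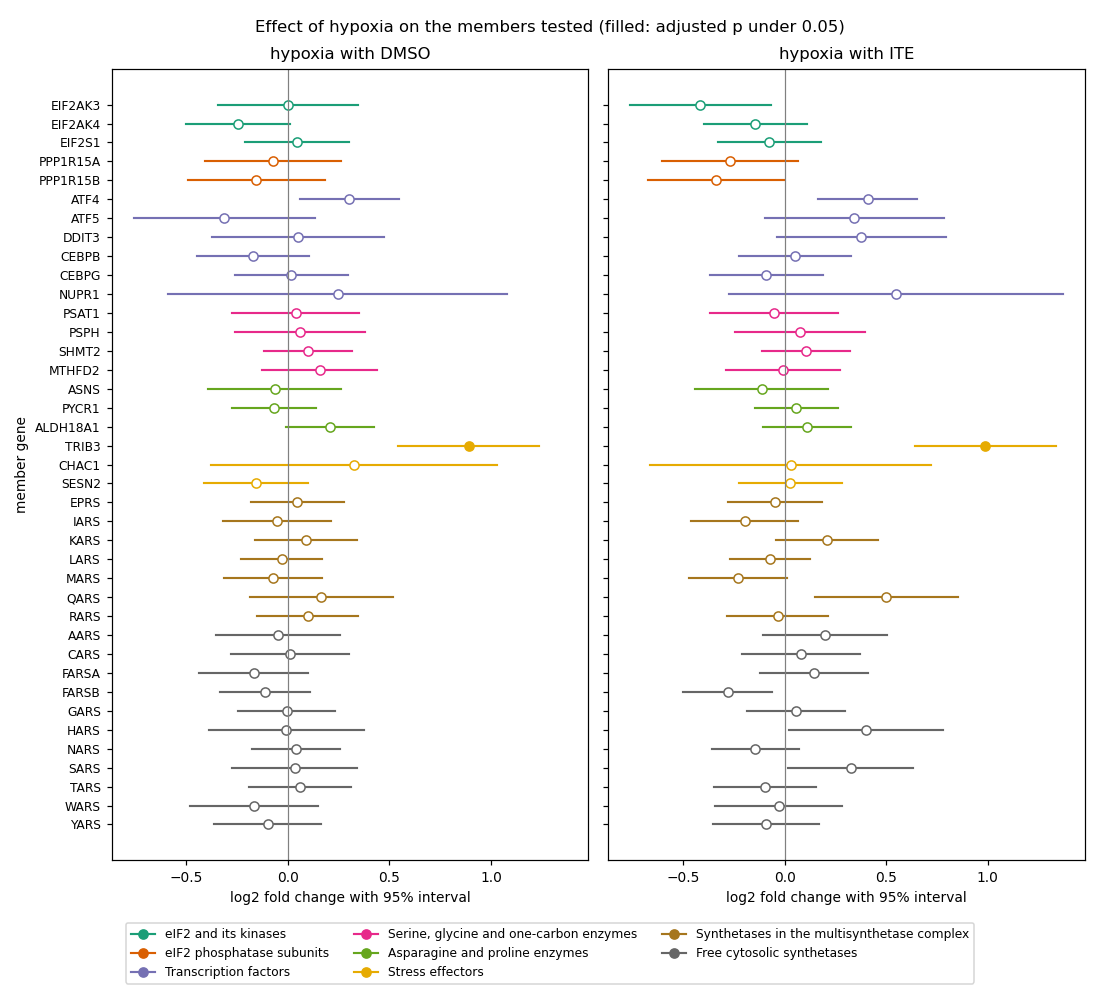
Log2 fold change of hypoxia against normoxia with its 95% interval for the 39 members tested, with DMSO (left) and with ITE (right). Colours mark roles and filled points an adjusted p under 0.05. TRIB3 is the filled point in both panels.

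The second question was whether ITE touched the module. None of the 39 members passed the threshold for ITE in normoxia under edgeR with all libraries, where 0.0511% of all genes passed. At an unadjusted p under 0.05, which 1.46% of all genes had, 1 member was higher (PPP1R15A) and 2 were lower (CEBPB and SESN2). At the adjusted threshold DESeq2 called 1 member (CEBPB), and limma with quality weights called 2 (CEBPB and PPP1R15A). The shares of all genes that these 2 methods called are not given here. The synthetases were flat, with log2 fold changes from -0.10 (FARSA) to 0.11 (IARS, the isoleucine enzyme) over 18 genes.

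CEBPB (chromosome 20, 48807367 to 48809205 in GRCh37), a C/EBP factor that can pair with ATF4 and that also serves inflammatory and metabolic programmes, gave the clearest difference with ITE. It ranged from 48.7 to 58.7 CPM in normoxia + DMSO, with a median of 52.5, and from 28.2 to 39.5, with a median of 35.5, in normoxia + ITE. In hypoxia it ranged from 40.0 to 59.1 (median 46.6) with DMSO and from 23.9 to 48.0 (median 35.8) with ITE. The normoxia groups did not overlap, as those of 0.69% of all genes did not, and the hypoxia groups did. In normoxia the log2 difference was -0.59 (standard error 0.13, adjusted p = 0.144 by edgeR with all libraries). It was -0.58 (adjusted p = 0.0012) with the 12 normoxia libraries alone and -0.59 (adjusted p = 0.00968) without hypoxia + ITE replicate 6. DESeq2 and limma with quality weights called CEBPB with all libraries. This call therefore depends on the method and on which libraries enter the fit. It was made in 7 of 12 alternatives, with log2 differences from -0.60 to -0.56. In hypoxia the log2 difference was -0.36 (adjusted p = 0.494), and the difference between the 2 effects was 0.22 (95% interval -0.17 to 0.61).

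PPP1R15A ranged from 59.8 to 128 CPM in normoxia + DMSO, with a median of 95.2, and from 105 to 158, with a median of 126, in normoxia + ITE. The ranges overlapped, and the log2 difference was 0.46 (standard error 0.16, adjusted p = 1). PPP1R15A was higher with ITE in 6 of 6 same-numbered libraries, although the labels do not tie these together. With the replicate block it passed in the fit of the normoxia libraries alone and not with all libraries. SESN2, a sestrin that damps mTORC1 when leucine is short, ranged from 21.8 to 28.4 CPM in normoxia + DMSO and from 16.5 to 24.1 in normoxia + ITE, a log2 fold change of -0.28 (adjusted p = 1).

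For ITE in hypoxia, 0 members passed under edgeR, where 0.0597% of all genes passed, and 0 under DESeq2 and under limma with quality weights. At an unadjusted p under 0.05, which 9.56% of all genes had, 3 were higher (ATF5, HARS and SARS) and 1 was lower (CEBPB). ATF5 ranged from 45.1 to 56.9 CPM in hypoxia + DMSO and from 48.3 to 182 in hypoxia + ITE, and HARS, the histidine synthetase, from 138 to 182 and from 148 to 448. In both genes the highest value belonged to replicate 6. HARS shares 1090 of its 14155 exon bases with WDR55 on the opposite strand, where the same limit on strand holds. The log2 fold change fell from 0.60 to 0.17 for ATF5 and from 0.48 to 0.14 for HARS when that library was left out.

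**Figure D3:**
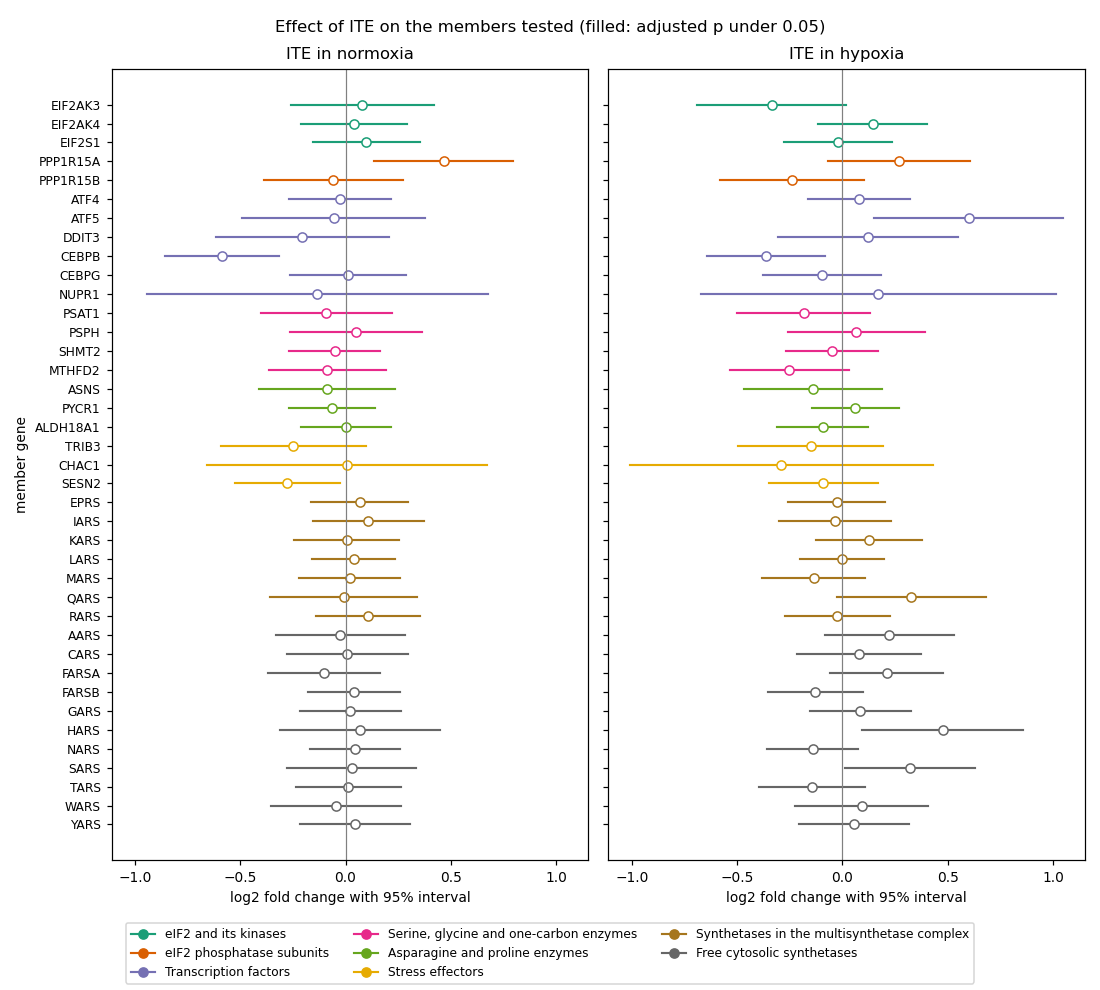
Log2 fold change of ITE against DMSO with its 95% interval for the 39 members tested, in normoxia (left) and in hypoxia (right). Colours mark roles, and no point is filled because no adjusted p was under 0.05. CEBPB (-0.59) lies farthest from 0 in normoxia.

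Both stimuli together were set against neither. Here 2 members passed, where 1.79% of all genes were higher and 0.528% lower: TRIB3 was higher (log2 fold change 0.74, adjusted p = 0.013) and CEBPB was lower (-0.53, adjusted p = 0.026). These comparisons share the normoxia + DMSO and hypoxia + ITE libraries with those above and are no separate evidence. With only those 12 libraries in the fit, neither passed. For the interaction of ITE and hypoxia 0 members passed under edgeR, DESeq2 or limma with quality weights, and 0 of all genes under edgeR. ATF5 was the only member with an unadjusted p under 0.05 (log2 difference 0.66), as 3.19% of all genes had. Its highest library was replicate 6 of hypoxia + ITE.

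**Figure D4:**
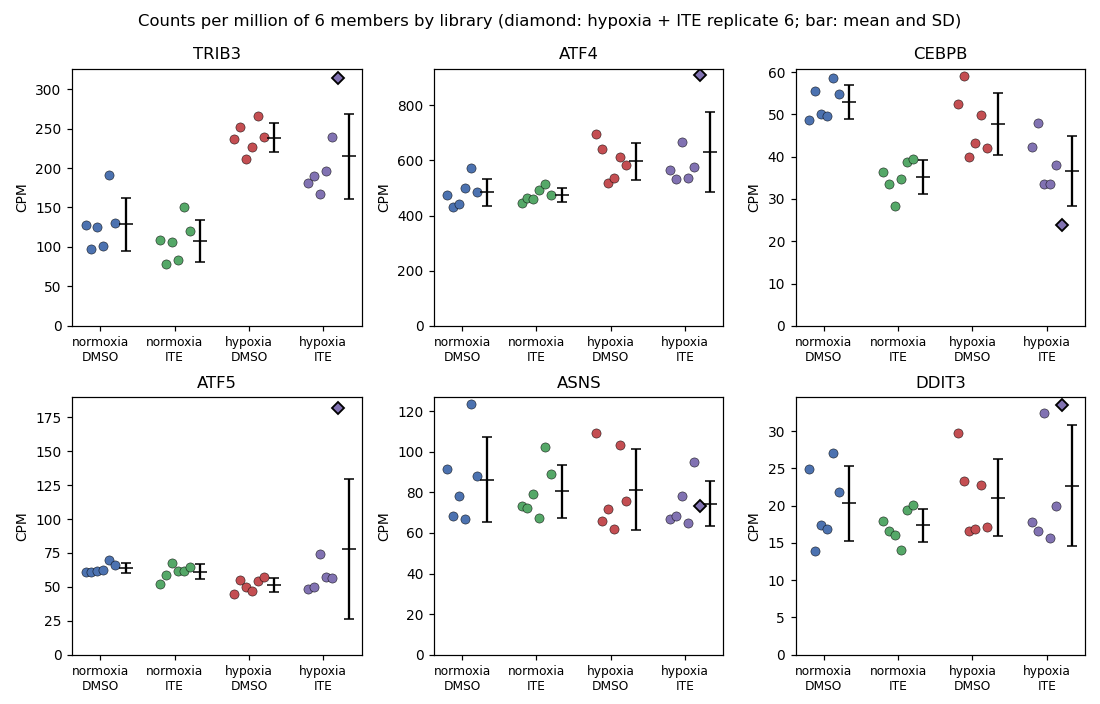
CPM of 6 members in each library on axes from 0, by group, with the mean and SD of the 6 libraries beside the points. The diamond is hypoxia + ITE replicate 6. Within each treatment TRIB3 is higher in hypoxia with no overlap, ATF5 is lower in hypoxia with DMSO with no overlap, CEBPB is lower with ITE in normoxia with no overlap, and the groups of ASNS and DDIT3 overlap.

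None of the 11 members with CARE in a promoter window passed in any of the 6 comparisons, in which at most 2.35% of all genes tested passed. Their median log2 fold change was -0.005 in hypoxia with DMSO, against 0.037 for the 22 tested members with a window and no CARE. The medians were -0.095 and 0.041 for hypoxia with ITE, 0.011 and -0.003 for ITE in normoxia, -0.137 and 0.029 for ITE in hypoxia, -0.081 and 0.058 for both stimuli and -0.145 and 0.104 for the interaction, and the difference between these lists was not tested. TRIB3 and CEBPB had windows without CARE. Sequence outside the windows and other forms of the element were not searched, so this does not show that either gene lacks one.

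A shared movement of the module ran across replicate numbers within groups. It was noticed after the values were seen and is a description without a test. In replicate 5, 24 of the 39 members (61.5%) lay above their group's median in all 4 groups, against 14.0% of all genes tested. In the other replicate numbers this held for 0 to 11 members. ASNS measured 124 and 103 CPM in replicate 5 of the normoxia groups (DMSO, then ITE) and 104 and 94.8 CPM in replicate 5 of the hypoxia groups, which was 0.42 to 0.57 above the group median on the log2 scale. CHAC1 was 0.64 to 0.99 above, MTHFD2 0.32 to 0.48, WARS, the tryptophan synthetase, 0.26 to 0.51, and TRIB3 0.15 to 0.60. All 5 are ATF4 targets, and of them only TRIB3 was called in hypoxia.

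Both branches took part, with 13 of 21 stress response members and 11 of 18 synthetases above the median in all 4 groups. Of the 11 members with CARE, 9 were above in all 4, and of the 22 with a window and no CARE, 12 were. Over all genes tested, 18.8% of 250 with CARE and 14.1% of 9109 without were above. Among genes outside the module, 7 of 19 further ATF4 targets, 6 of 18 genes of the unfolded protein response outside the eIF2 arm and 3 of 17 mitochondrial synthetases were above in all 4. Replicate 4 went the other way, with 17 members (43.6%) below the median in all 4 groups against 9.45% of all genes, 12 of them in the stress response branch. The labels do not say whether libraries with the same number were grown or prepared together, and the part of culture, handling or sequencing in these values was not tested. Members are correlated with each other, so 24 is not a count of independent events.

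**Figure D5:**
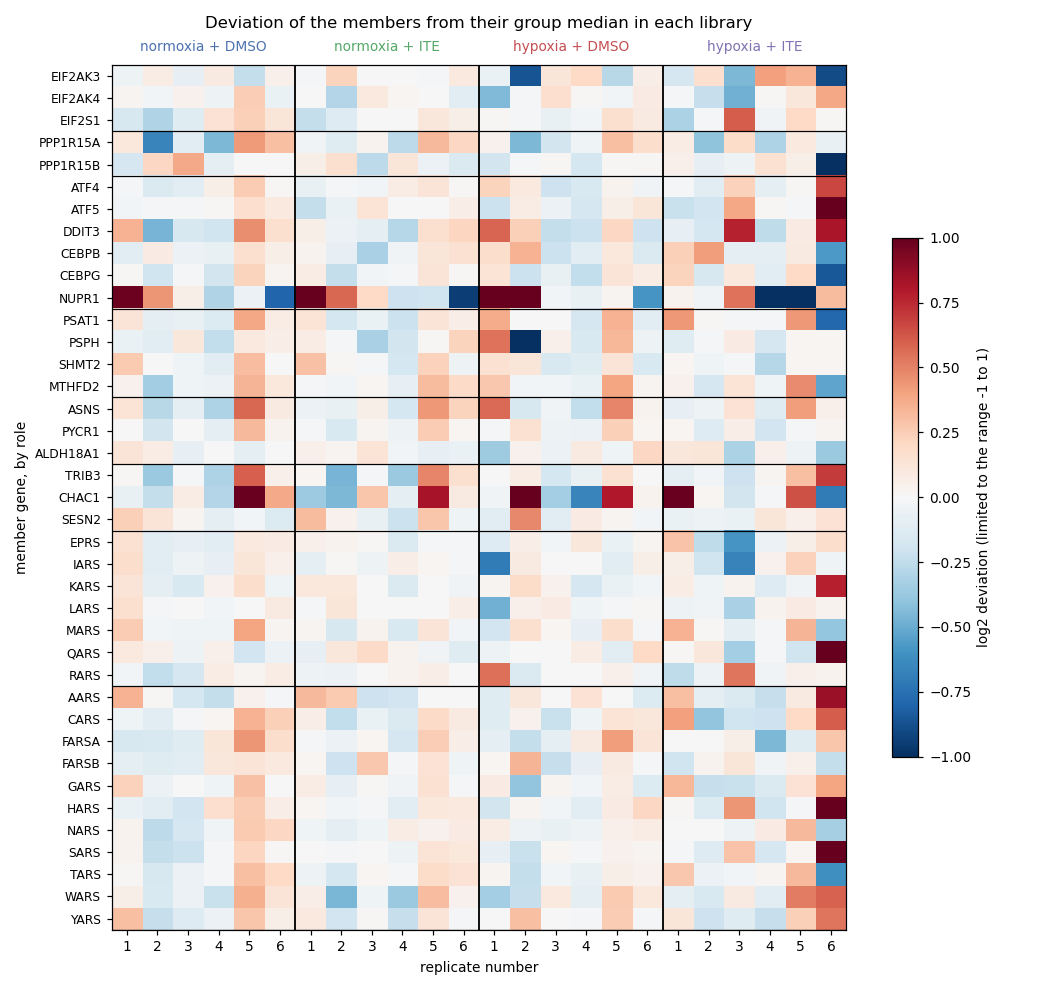
Deviation of each of the 39 members tested from its group's median in each of the 24 libraries, on the log2 scale and limited to the range -1 to 1. Rows are members by role and columns replicates by group. Replicate 5 is mostly red (above the median) in all 4 groups, and hypoxia + ITE replicate 6 holds deep colours of both signs.

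Genes around the module were read from lists chosen with earlier results known. Of 19 further ATF4 target genes tested, 2 were higher and 0 lower in hypoxia with DMSO, namely DDIT4, an inhibitor of mTORC1 that HIF also induces (log2 fold change 3.53, adjusted p = 8.14e-15), and STC2, a secreted glycoprotein (1.46, adjusted p = 4.04e-06). With ITE present DDIT4 (3.14), STC2 (0.92) and JDP2 (0.77) were higher in hypoxia. SLC7A5, a leucine transporter that ATF4 induces, was higher with ITE in normoxia (1.21, adjusted p = 1.56e-07) and in hypoxia (0.88, adjusted p = 0.000122). Its levels were 439 to 658 CPM in normoxia + DMSO and 1226 to 1506 CPM in normoxia + ITE, with no overlap. In the 4 comparisons of 1 stimulus, edgeR called 0 of 9 other eIF2 pathway genes, 0 of 18 genes of the unfolded protein response outside the eIF2 arm, 0 of 17 mitochondrial synthetases and 0 of 3 synthetase scaffold proteins. At an unadjusted p under 0.05 in hypoxia with DMSO these lists held 1, 1, 2 and 0 genes, all lower, where 9.47% of all genes had such a p. For ITE in hypoxia they held 1, 1, 3 and 0, all higher, where 9.56% of all genes had one. In the eIF2, unfolded protein response and mitochondrial lists, the largest increases there were those of EIF2B4, CALR and AARS2. Their highest library in hypoxia + ITE was replicate 6 (38.9, 4433 and 28.2 CPM). These lists were not recounted without that library.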

How the data were processed

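PolyA RNA from 24 libraries of RCC4+VHL cells was sequenced with a directional kit. Per the labels and the methods, the authors trimmed adaptors (Trim Galore 0.3.3), aligned to GRCh37 with HISAT2, removed fragments that did not map uniquely (Picard 2.0.1) and counted reads per UCSC gene with HTSeq 0.5.4p3 in its intersection-strict mode. The counts they deposited are raw read numbers for each symbol in each library. No 2 libraries were identical.

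Groups and replicate numbers came from the labels. In R 4.3.3, edgeR 4.0.16 (filterByExpr with a minimum count of 10, TMM, quasi-likelihood test, 1 mean per group, all 24 libraries) tested 11735 genes in 6 comparisons, with Benjamini-Hochberg adjustment over all of them and two-sided tests (threshold 0.05). The procedure was run on simulated counts drawn independently for each library. They held no shared replicate effect and no deviant library, so that run does not show how many differences would be missed here. Alternatives used DESeq2 1.42.0, limma 3.58.1 with voom and sample quality weights, DESeq2 size factors, no filter, the replicate block, only the compared groups, and fits without single libraries. A further 3 alternatives were chosen after the data were seen. Of the 42 members, 1 is not reported here and enters no count of members. The members, lists and tests were chosen with earlier results of these data known. Values by library were given for members that passed in any comparison, or had the smallest p of their role in any comparison of 1 stimulus, and other genes were named where they passed. ASNS, CHAC1, DDIT3 and WARS were named after their values were seen.

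Deviations used log2(CPM + 0.5). Levels per kilobase used the canonical transcript of GENCODE v44 lifted to GRCh37, which also gave the coordinates, since the counts carry symbols only. Older symbols (AARS, QARS) were matched through RefSeq synonyms. Promoter windows came from RefSeq (GRCh38.p14).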

Additional observations from a re-analysis of the deposited data

Results flagged for a closer look

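Within the 76 groups of 6 libraries formed by the 19 members described by value, 12 single libraries lay apart from the other 5 by Dixon's criterion at the 95% level, where chance gives about 3.8. Hypoxia + ITE replicate 6 accounted for 5 of them. It was the highest library for ATF4 (909 CPM), ATF5 (182 CPM), QARS (426 CPM) and HARS (448 CPM) and the lowest for PPP1R15B (14.7 CPM). In normoxia + DMSO, replicate 5 was high for TRIB3 (192 CPM) and for EIF2AK4 (93.9 CPM). In hypoxia + DMSO, replicate 1 was low for EIF2AK4 (51.1 CPM) and high for RARS (293 CPM), and the shallowest library, replicate 2, was high for SESN2 (30.2 CPM). In hypoxia + ITE, replicate 4 was low for SHMT2 (204 CPM) and replicate 3 high for RARS (288 CPM). The cause of these values was not tested.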

How the results depend on the processing

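Of 12 alternatives, each with all 6 comparisons where it could be fitted, those that moved the number of members called are as follows. Quality weights gave 4 for hypoxia with DMSO (ALDH18A1, ATF4, ATF5 and TRIB3) and 2 for ITE in normoxia. With the compared groups only there were 1 for ITE in normoxia (CEBPB) and 0 for both stimuli, and with the replicate block added to that fit 3 (CEBPB, PPP1R15A and TRIB3) and 0. DESeq2 gave 2 for hypoxia with ITE (ATF4 and TRIB3). For ITE in normoxia DESeq2 gave 1, and fits without 1 library gave 0 to 1. That number was 1 without hypoxia + ITE replicate 6, 1 without it and hypoxia + DMSO replicate 2, and 1 without these and hypoxia + ITE replicate 1. The share of all genes called in each of these fits is not given here. These counts therefore do not show whether members moved more than other genes. The cause of these moves was not tested. ITE in hypoxia and the interaction gave 0 in all alternatives run. The log2 fold change of QARS for ITE in hypoxia turned from 0.33 to -0.0057 without those 3 libraries, 1 of which is its highest.

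The replicate block with all libraries gave 1, 1, 0, 0, 2 and 0 members, as without it. Same-numbered libraries had correlated deviations of -0.18 to 0.43 across genes, under 0.1 in several pairs. Of 6 libraries, 5 correlated best with their own number between the normoxia groups and 4 between the ITE groups. This held for 3 between the DMSO groups and 2 between the hypoxia groups. Because it did not hold for every library, the main fit did not pair the samples by these numbers. Between the normoxia groups 5 of 6 pairs were over 0.1 and the other was at -0.0045. In the block fit of those 12 libraries, PPP1R15A (adjusted p = 5.97e-06) was higher with ITE in 6 of 6 same-numbered libraries and TRIB3 (adjusted p = 0.00206) lower in 6 of 6. With the block and all libraries neither passed (adjusted p = 0.133 and 1).

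Depth limits CHAC1, at a median near 4 CPM, most of all, since 3 counts correspond to 3.90 CPM in the shallowest library. The common biological coefficient of variation was 22.0%.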
